A study of Mus musculus with 2 samples.

Results

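The promoters of the Zfp genes were followed in H3K4me3 ChIP-seq of mouse bone marrow-derived macrophages. Members were the protein-coding genes of GENCODE M21 whose symbol is Zfp followed by a number, without Zfp36, whose product carries CCCH rather than C2H2 zinc fingers. This rule gave 364 genes of 21938, leaving 21574 other protein-coding genes. Every annotated transcript start was given a promoter window reaching 1000 bp in both directions. The cells were primary macrophages of strain C57BL/6J that received no stimulation, and their age is given as unknown or not collected. There were 2 biological replicates of this 1 group and no condition was compared, so the values below are described with no test. The labels give separate cell preparations under 1 donor entry and do not say that they came from separate animals, so the spread between replicates may be technical.

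A gene was called marked when each replicate's own peak list held a peak overlapping one of its windows by at least 1 bp. The macrophage label was checked first: all 7 macrophage marker genes (Csf1r, Adgre1, Cd68, Lyz2, Mertk, Fcgr1 and Itgam) were marked. No B cell, neutrophil, fibroblast or embryonic stem cell marker of 3 each was marked. Of 3 T cell markers 1 was (Cd3d, with folds of 15.9 and 3.52 in replicates 1 and 2), and of 2 germ cell markers 1 was (Dazl, 16.1 and 5.61). The lists hold no read counts, so depth is unknown.

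H3K4me3 is the trimethylated form of lysine 4 of histone H3 and accumulates on nucleosomes at the start of transcribed genes and at many CpG-rich promoters. Most Zfp genes encode C2H2 zinc finger proteins, in which each finger is a small zinc-bound fold that reads a few bases of DNA. Many of them also carry a KRAB domain, which recruits the co-repressor TRIM28 and with it the histone methyltransferase SETDB1, and silences retrotransposons and imprinted genes. KRAB zinc finger genes multiplied by tandem duplication, and so lie in clusters of similar genes. A scan of the coding sequences found at least 1 C2H2 finger in 347 members and 3 or more in 323, with a median of 11 and a maximum of 33 in Zfp462. Fingers with another cysteine spacing were missed, so finger counts can be too low. The KRAB A signature was found in 219 members and not in 145.

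Sequences upstream of 9 members are shown because they span the range of what was measured. All are from RefSeq's GRCm38.p6 assembly (mm10), read 5′ to 3′ on the gene's strand, stop short of any annotated exon, and carry their CG dinucleotides in capitals. The first 3 belong to the members with the highest fold percentile in the 3 largest clusters, in which every gene was marked. They are Zfp65 (chr13:67729179-67729261, minus strand, 83 bases with 1 CG), Zfp946 (chr17:22424032-22424181, plus strand, 150 bases with 6 CGs) and Zfp146 (chr7:30169776-30169874, minus strand, 99 bases with 3 CGs).
Zfp65: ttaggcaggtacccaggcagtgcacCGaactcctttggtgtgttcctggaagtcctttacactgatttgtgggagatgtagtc
Zfp946: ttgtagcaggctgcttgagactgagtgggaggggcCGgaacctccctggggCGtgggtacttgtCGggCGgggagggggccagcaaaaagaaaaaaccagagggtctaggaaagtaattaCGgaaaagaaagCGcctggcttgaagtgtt
Zfp146: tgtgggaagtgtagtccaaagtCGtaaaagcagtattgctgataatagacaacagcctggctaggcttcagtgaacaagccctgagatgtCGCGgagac

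The next pair holds the member of highest fold percentile, Zfp207 (chr11:80383129-80383278, plus strand, 150 bases with 13 CGs), and the member with the widest domain, Zfp91 (chr19:12796127-12796192, minus strand, 66 bases with 9 CGs).
Zfp207: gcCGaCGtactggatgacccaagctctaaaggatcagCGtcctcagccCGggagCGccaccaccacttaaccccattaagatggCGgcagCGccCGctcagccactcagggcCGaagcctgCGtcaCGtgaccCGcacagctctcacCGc
Zfp91: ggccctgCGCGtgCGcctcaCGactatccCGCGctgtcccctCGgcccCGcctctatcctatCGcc

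The last 4 belong to genes with no promoter peak. Zfp990 (chr4:145510609-145510758, plus strand, 2 CGs) and Zfp980 (chr4:145670535-145670684, plus strand, 1 CG) are neighbours on chromosome 4, and their longest common run is 31 bases. Zfp965 (chr2:175469835-175469984, plus strand, 0 CGs) and Zfp966 (chr2:175931101-175931250, minus strand, 2 CGs) lie on chromosome 2 and share a run of 124 bases of the 150 shown.
Zfp990: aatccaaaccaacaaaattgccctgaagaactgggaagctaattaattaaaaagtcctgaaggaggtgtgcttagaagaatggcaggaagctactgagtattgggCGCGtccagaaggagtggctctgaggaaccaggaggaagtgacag
Zfp980: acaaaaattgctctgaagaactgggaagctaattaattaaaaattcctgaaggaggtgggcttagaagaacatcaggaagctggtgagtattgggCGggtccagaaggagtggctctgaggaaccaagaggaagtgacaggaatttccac
Zfp965: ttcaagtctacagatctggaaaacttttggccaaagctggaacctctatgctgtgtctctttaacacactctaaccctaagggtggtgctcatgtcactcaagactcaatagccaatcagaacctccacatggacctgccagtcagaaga
Zfp966: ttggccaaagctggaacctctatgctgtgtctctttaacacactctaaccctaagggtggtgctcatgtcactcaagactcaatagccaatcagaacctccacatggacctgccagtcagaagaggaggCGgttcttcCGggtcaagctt

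Zfp promoters were marked more often than those of other coding genes. In both replicates 285 of the 364 members had a promoter peak, 78.3%, against 49.1% of the other coding genes and 49.5% of all coding genes. Replicate 1 held a peak at 300 members (82.4%) and replicate 2 at 285 (78.3%), a mean of 80.4% ± 2.91 (SD, n = 2). For other coding genes the same shares were 53.1% and 49.1%, a mean of 51.1% ± 2.83. The gap between the groups was 29.2 percentage points for marking in both replicates, 29.4 in replicate 1 alone and 29.2 in replicate 2 alone, which is larger than the spread between replicates. Another 15 members had a peak in replicate 1 only, where the share over all coding genes was 4%, 0 had one in replicate 2 only, where that share was 0.00456%, and 64 had none in either list (17.6%, against 46.4% of all coding genes).

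Members were marked more often than the rest also within tertiles of promoter CpG content. The CpG observed/expected ratio was taken over 1 kb on either side of the 5′ end, and its tertiles were set over all coding genes, with bounds at 0.278 and 0.604. In the lowest tertile 21 of 52 members were marked, 40.4%, against 11.9% of other genes. In the middle tertile, where 216 of the members lie, 178 were marked, 82.4% against 55.2%. In the highest tertile 86 of 96 were marked, 89.6% against 80.4%, so that the gap there was 9.22 points. The per-replicate shares kept this order in each tertile. CpG content was not equal within the lowest tertile, where the median ratio was 0.209 for members and 0.156 for other genes. In the middle tertile the medians were 0.465 and 0.474, and in the highest 0.707 and 0.719.

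**Figure D1:**
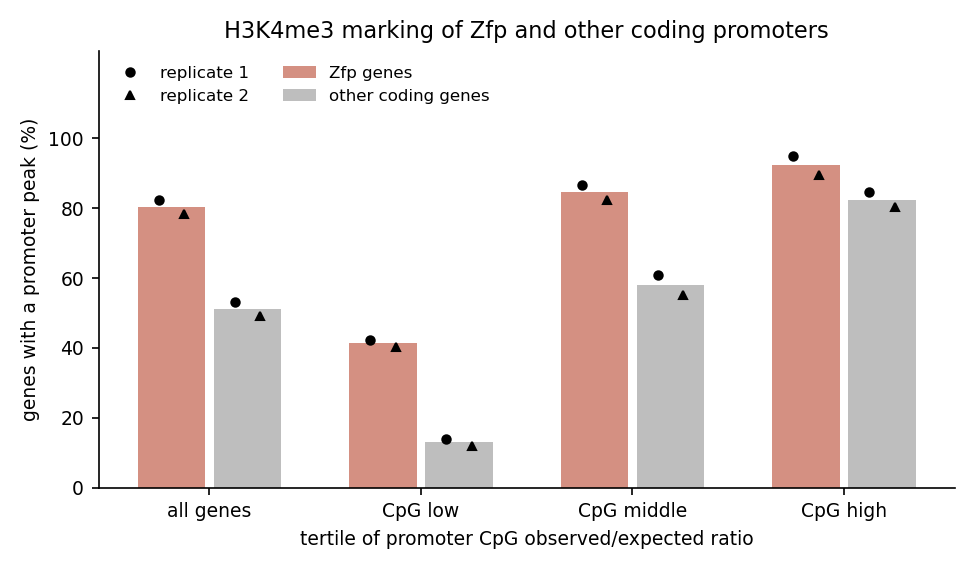
Percentage of genes with a promoter peak (y axis) for all genes and by tertile of the promoter CpG ratio (x axis), as bars for the mean of 2 replicates and symbols for each replicate. Zfp genes stand above other coding genes in every tertile, by 28.5, 27.2 and 9.22 points of genes marked in both replicates from the lowest to the highest.

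With all annotated starts used, most large clusters of Zfp genes were marked throughout, and the lowest shares were on chromosomes 4 and 8. The large chromosome 8 cluster had 2 of 5 members marked in both replicates, but 4 of 5 had a peak in replicate 1. Members whose gene bodies lie within 200 kb of each other were linked, which gave 53 clusters of 2 or more, 16 of them with 5 or more genes, and 133 single genes. The closest pairs on either side of this distance were Zfp986 and Zfp987, linked at 197.3 kb, and Zfp965 and Zfp969, not linked at 210.1 kb. In clusters of 5 or more 118 of 139 members were marked (84.9%), in clusters of 2 to 4 genes 66 of 92 (71.7%) and among single genes 101 of 133 (75.9%). The first of these shares lay 8.95 points above the last, by 5.85 points on replicate 1 alone, by 18.5 points with linking within 100 kb and by 17.2 points without windows rich in repeated sequence. It was not seen among KRAB members alone, where the shares were 83.1% in clusters of 5 or more and 83.8% among single genes. By CpG tertile the shares were 36.4% and 42.9% in the lowest, the opposite order, 93.5% and 71.7% in the middle and 95.8% and 88.1% in the highest. In 29 of the 53 clusters, and in 9 of the 16 larger ones, every member was marked. With only the 5′ end of each gene used, the largest clusters of chromosomes 13 and 17 were no longer among them.

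The largest cluster, on chromosome 13 between 67038596 and 67827002, holds 19 members, all with a KRAB signature and all marked. Their domains were 901 to 1888 bp wide in replicate 1 and 783 to 1489 bp in replicate 2, and the median CpG ratio was 0.329. Its member of highest fold percentile was Zfp65, with folds of 61.5 and 25.2 and widths of 1813 and 1338 bp. Zfp708, which binds a family of retrotransposons, lies in the same cluster and had folds of 23.4 and 7.44. One of its windows also holds a start of the coding gene Gm28557. With only the 5′ end of each gene used, Zfp458, Zfp708, Zfp738 and Zfp759 were not marked, so their calls rest on other starts. The cluster's span also holds 11 coding genes that are no members, of which 10 were marked.

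On chromosome 17, between 21383748 and 22456689, all 18 members were marked, again all with KRAB. Folds there ranged from 11.2 to 46.0 in replicate 1 and from 4.31 to 18.8 in replicate 2, with a median percentile of 30.9 among all coding genes with a promoter peak, against 61.9 in the chromosome 13 cluster. The top member was Zfp946 with 46.0 and 18.8. Zfp229 was not marked when only the 5′ end was used. A second cluster on the chromosome, between 32765496 and 33110705, had 7 of 8 members marked at a median percentile of 78.7, and Zfp811 was the exception.

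Chromosome 7 carries 7 of the 16 larger clusters and 54 of their 57 members there were marked. The 15 genes between 29768552 and 30169750 were all marked, among them Zfp146, which consists almost only of fingers (folds 53.8 and 21.7), and Zfp568, which silences a placental transcript of Igf2 (45.6 and 17.1). The 12 genes between 24081924 and 24587641 included the 2 unmarked members Zfp112 and Zfp575, and the third unmarked gene of these clusters was Zfp626, whose nearest replicate 1 peak lay 1394 bp from a start. All 7 members of the chromosome 6 cluster were marked, with widths in replicate 1 from 563 bp at Zfp786 to 2228 bp.

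**Figure D2:**
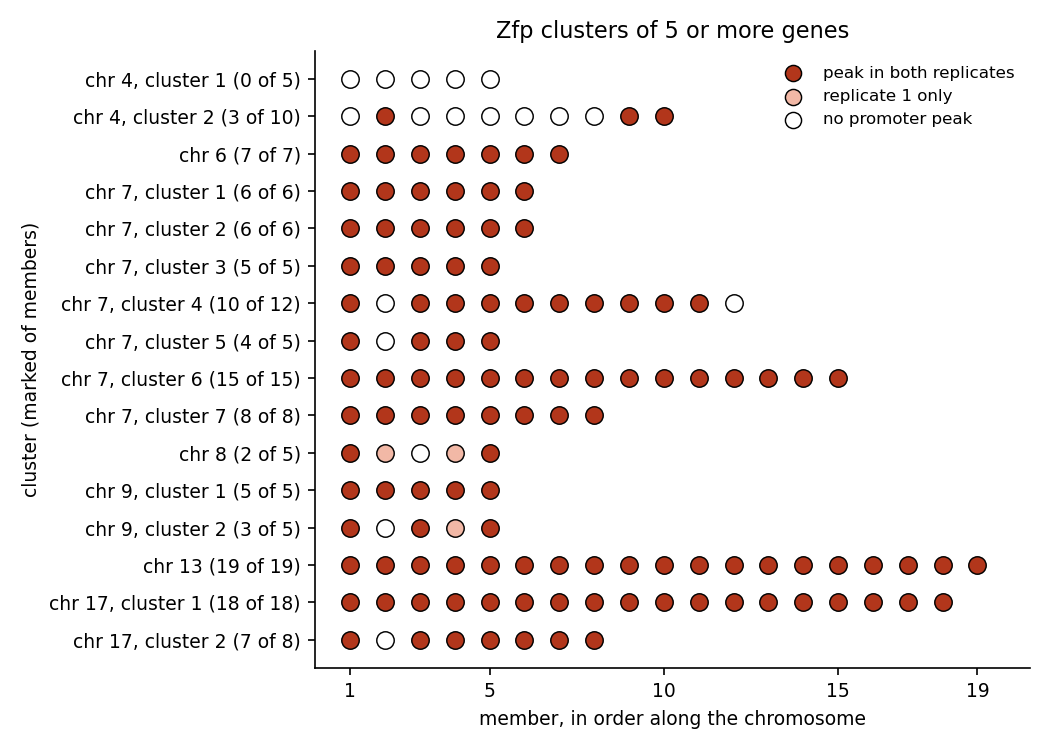
Each row is 1 of the 16 clusters with 5 or more Zfp genes, and each circle is a gene in its order along the chromosome (x axis), filled when both replicates had a promoter peak, pale when only replicate 1 had one and open when neither did. Open circles gather in the 2 chromosome 4 rows, where 3 of 15 genes are filled, while 9 rows are filled throughout.

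Chromosome 4 held the most unmarked members, but wholly unmarked clusters lay elsewhere too. Of all clusters of 2 or more, 7 had no member marked, and these lay on chromosomes 2, 4, 11 and 17. On chromosome 4 the unmarked members were close together. In 3 neighbouring clusters, with 18 members in all, 15 were unmarked. The first, between 145510759 and 146198755, had 0 of 5 marked, the second 0 of 3 and the third, between 146971976 and 147848366, 3 of 10. The 3 marked genes were Zfp933 (folds of 60.3 and 26.1), Zfp984 (36.1 and 14.9) and Zfp991 (8.78 and 4.18), so 1 of the highest folds among all members lay within a mostly unmarked cluster. All 18 carry KRAB. Of the 18, 15 fell in the lowest CpG tertile, and the sequences of Zfp990 and Zfp980 above hold 2 CGs and 1 CG in 150 bases.

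Repeated promoter sequence went with fewer marked genes. As a measure of sequence repetition, the share of 50-base words that occur once in the 21 chromosomes was computed. It was taken over 1 kb on either side of each gene's 5′ end only, so it does not describe windows at other starts. Of 288 members with at least 90% such words 243 were marked (84.4%), of 48 members with 50 to 90% 35 were marked (72.9%) and of 28 under 50% 7 were (25%). Other coding genes gave 54.1%, 24.0% and 3.97% in the same ranges. The median share was 18.4% in the first chromosome 4 cluster and 36.4% in the third, against 95.5% in the chromosome 13 cluster. In 7 members it was 0: Zfp965, Zfp966, Zfp967, Zfp968, Zfp969 and Zfp973 on chromosome 2 and Zfp781 on chromosome 10, and all 7 were unmarked. How reads that match several places were treated is not given in the sources used here, so absence of the mark and absence of placed reads cannot be told apart at these genes. The lists do hold peaks at some repeated windows: Zfp931, with 19.7% of its words found once, had folds of 20.4 and 7.83, and Zfp971, with 42.4%, had 33.6 and 17.6.

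**Figure D3:**
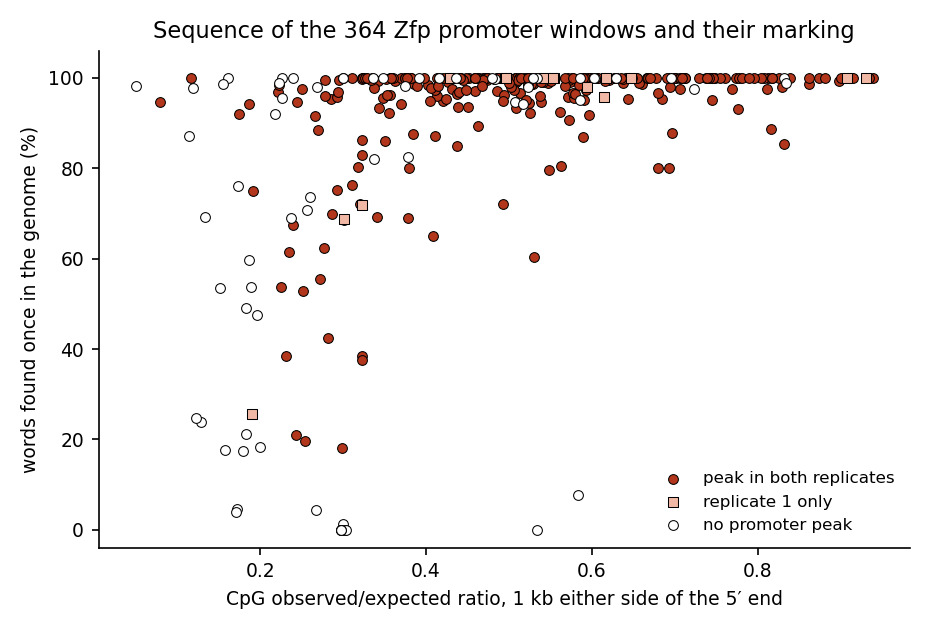
Each point is 1 of the 364 Zfp genes, filled by marking. The x axis gives the CpG observed/expected ratio and the y axis the percentage of 50-base words found once in the genome. Both were taken over 1 kb on either side of the 5′ end. Open points gather at low CpG ratio and low uniqueness; several of the 7 genes at 0% lie on top of each other.

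Members with and without KRAB had similar shares marked when all were pooled, but not within CpG tertiles, and they differed in domain width. Of the 219 with the signature 171 were marked (78.1%) and of the 145 without it 114 (78.6%). This difference of -0.54 points changed sign with several settings: it was 1.53 points with windows of 500 bp and 9.90 points when windows with fewer than 90% of words found once were left out. Within each CpG tertile the KRAB members had the higher share: 44.4% against 14.3% in the lowest, where only 7 members lack KRAB, 85.9% against 74.6% in the middle and 92% against 88.7% in the highest. Among coding genes that are no members but have KRAB and at least 3 fingers, 51 of 93 were marked (54.8%). The median share of words found once was 71.8% for these 93, and of the 33 KRAB genes outside the Zfp set with at least 90%, 25 were marked (75.8%). Among those with 3 or more fingers and no KRAB 105 of 168 were marked (62.5%). Members with 15 or more fingers were marked in 63 of 72 cases, 87.5%, and those with 1 to 4 fingers in 40 of 51, 78.4%. Members in which no C2H2 finger was found, 17 in all, were marked in 9 cases (52.9%). Because the scan misses some fingers, the groups with few or none can hold genes that have more. One of these 17 is Zfp185, which encodes a LIM domain protein.

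H3K4me3 domains at marked Zfp genes were narrower than at other marked genes as a whole, and this held for the KRAB members. Peaks separated by at most 1000 bp were joined into a domain, and of the domains that touch a gene's windows the widest was taken. Over the 285 marked members the median width was 1709 bp in replicate 1 and 1366 bp in replicate 2, against 2165 and 1752 bp for other marked genes. With the 2 replicates averaged per gene the medians were 1537 and 1959 bp, a difference of -422 bp, and without joining the difference was -181.5 bp. Members with KRAB had medians of 1509 and 1254 bp, and members without it 2172.5 and 1773 bp, which is close to the other genes' medians. The marked coding genes outside the Zfp set with KRAB and at least 3 fingers had medians of 1409 and 1138 bp, so narrow domains were also found at KRAB genes with other names. In the middle CpG tertile the medians were 1503 and 1255 bp with KRAB, 1668 and 1312 bp without, and 1814 and 1455 bp for other genes. In the highest tertile they were 1872 and 1542 bp with KRAB, 2403 and 2096 bp without, and 2404 and 1997 bp for other genes.

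**Figure D4:**
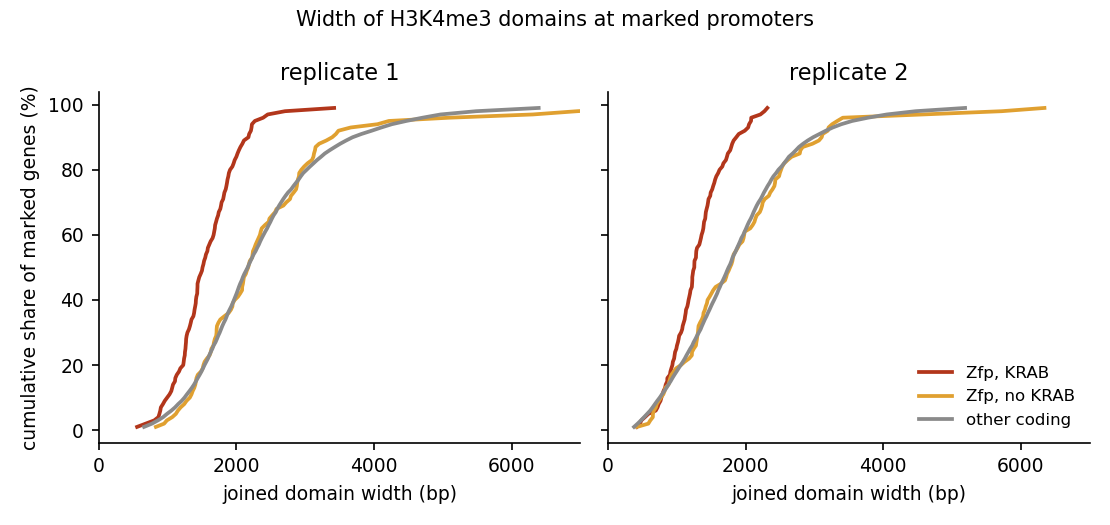
Cumulative percentage of marked genes (y axis) by joined domain width in bp (x axis) in each replicate, drawn from the first to the 99th percentile, for Zfp genes with KRAB, Zfp genes without KRAB and other coding genes. The KRAB curve lies to the left, with medians of 1509 and 1254 bp, while the other curves nearly coincide.

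Wide domains were few, and most were at single genes without the KRAB signature. A mean width of 3000 bp or more was found at 16 members, 5.61% of those marked against 14.2% of other marked genes. The KRAB signature was found in 1 of the 16, against 171 of all 285 marked members. No other member lay within 200 kb of 11 of the 16, against 101 of the 285. The widest domain was at Zfp91, which encodes a ubiquitin ligase that acts on the NF-κB-inducing kinase, with 9204 bp in replicate 1 and 8278 bp in replicate 2. Its window also holds a start of Lpxn, the gene of the adaptor leupaxin, so the domain cannot be assigned to 1 of these genes, and without joining the widest peak averaged 2075 bp. Zfp516, a regulator of thermogenic fat genes, had 7105 and 6412 bp, and Zfp217, an oncogene amplified in breast tumours, 6520 and 5871 bp. With only the 5′ end of each gene used, Zfp217 was not marked, so its call rests on another of its starts. Zfp710 followed with 5978 and 5292 bp. At Zfp608 the replicates differed most among the wide domains, with 7912 bp in replicate 1 and 3309 bp in replicate 2.

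The remaining wide domains among the 10 widest were those of Zfp207 (4186 and 3451 bp), Zfp526 (4013 and 3376 bp), Zfp263 (3485 and 3197 bp), Zfp622 (3455 and 3201 bp) and Zfp148 (3354 and 3242 bp). Windows of Zfp526 also hold a start of Dedd2, so its domain cannot be assigned to 1 gene. The narrowest marked members were Zfp786 (563 and 385 bp), Zfp114 (545 and 408 bp), Zfp931 (548 and 503 bp), Zfp777 (608 and 548 bp) and Zfp991 (804 and 424 bp), all with KRAB. Zfp786 and Zfp777 lie in the chromosome 6 cluster and have CpG ratios of 0.585 and 0.914, in the middle and the highest tertile, so narrow domains were not limited to CpG-poor promoters. Across the 285 members Spearman's rho between CpG ratio and mean width was 0.545, against 0.304 across other marked genes, given as a description since genes are not replicates.

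Widths and folds ranked the members alike in the 2 replicates. Across the 285 members Spearman's rho between replicates was 0.960 for fold and 0.844 for width, and 278 members (97.5%) had the wider domain in replicate 1. At 2 of them, Zfp638 and Zfp563, replicate 1 and replicate 2 had their widest domain at different places. Zfp521, a regulator of blood progenitors, had 2992 bp in replicate 1 and 345 bp in replicate 2, with folds of 9.90 and 2.87, and Zfp318, which controls the switch between IgM and IgD transcripts in B cells, had 2183 and 670 bp.

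**Figure D5:**
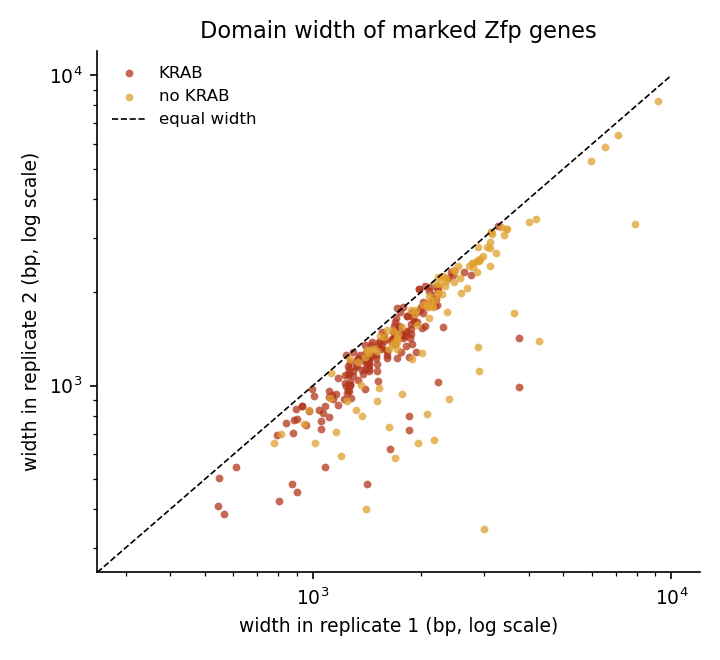
Joined domain width of the 285 marked Zfp genes in replicate 1 (x axis, log scale, bp) and replicate 2 (y axis, log scale, bp), coloured by KRAB. Most points lie just below the dashed line of equal width, and 278 of 285 are wider in replicate 1.

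Fold, the authors' own value for each peak, differed little between members and other genes. The strongest promoter peak had a median fold of 37.2 in replicate 1 and 14.1 in replicate 2 at marked members, and 38.9 and 14.98 at other marked genes. As a percentile among coding genes with a promoter peak in the same list, averaged over the replicates, the median was 46.8 for members and 52.0 for others, a difference of -5.21 that became 0.034 when genes sharing a window with another coding gene were left out. Such sharing was found at 45 members, of which 42 were marked (93.3%). The top fold percentile, 99.7, belonged to Zfp207, whose product carries the Bub3 checkpoint protein to kinetochores (folds 64.5 and 30.7). Zfp408 (61.3 and 28.4), Zfp672 (62.8 and 26.8), Zfp933 (60.3 and 26.1) and Zfp65 (61.5 and 25.2) came next. The rest of the top 10 were Zfp950, Zfp949, Zfp830, Zfp169 and Zfp958, and 17 members in all were in the top decile. Windows of Zfp408, Zfp672, Zfp830 and Zfp169 also hold starts of Arhgap1, Sh3bp5l, Cct6b and A830005F24Rik, respectively. The folds of these members cannot be assigned to 1 gene. Zfp950 reached folds of 60.5 and 25.1 with a CpG ratio of 0.223, in the lowest tertile.

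Of 30 members listed for a known role, 25 were marked, a share near the 78.3% of all members. Among retroelement and imprint regulators these included Zfp809, which silences murine leukaemia viruses (folds 26.7 and 12.01), Zfp445, which maintains imprints (45.3 and 17.9), Zfp932 (33.6 and 13.2), Zfp568 and Zfp708. Zfp57, the other imprint regulator, had no promoter peak, and its nearest replicate 1 peak lay 41726 bp from its nearest start. Zfp819, known from germ and pluripotent cells, had none either. Zfp42, the pluripotency marker REX1, had none, with the nearest peak 1889390 bp away, and neither did Zfp423, a preadipocyte regulator, although its CpG ratio was 0.832. The fifth, Zfp462, had a replicate 1 peak with a fold of 9.15.

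General regulators on the list were marked. Zfp143, which binds many housekeeping promoters, had folds of 51.9 and 21.5 and widths of 2882 and 2797 bp. Zfp335, a chromatin regulator needed in T cell maturation, had folds of 53.6 and 23.9. Zfp148 had 41.7 and 17.9, and Zfp281, a repressor studied in embryonic stem cells, 21.9 and 8.35. The ribosome assembly factors Zfp622 and Zfp593 had 55.9 and 24.5 and 30.3 and 10.3, and Zfp326, of a complex that links transcription and splicing, had 39.2 and 14.1. Zfp110 and Zfp369, whose products bind the neurotrophin receptor p75NTR, had 46.1 and 20.1 and 47.3 and 19.7. Widths among these went from 1066.5 ± 248 bp (SD, n = 2) at Zfp593 to 3328 ± 180 bp at Zfp622.

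The 15 members with a peak in replicate 1 only had weak peaks. Their median fold was 7.29, ranging from 4.11 at Zfp334 to 23.2 at Zfp503, a regulator of striatal development, whose domain was 3481 bp wide. At Zfp503 replicate 2 had a peak 1147 bp from the nearest start, just outside the window. With windows of 2500 bp Zfp503 was marked. The lowest fold of a member marked in both was 5.60 in replicate 1, so the ranges overlapped. The others were Zfp2, Zfp9, Zfp37, Zfp296, Zfp462, Zfp599, Zfp618, Zfp664, Zfp697, Zfp960, Zfp963, Zfp964 and Zfp972. In the authors' pooled list 13 of the 15 had a peak and 298 members in all did, where 52.7% of all coding genes did. In their replicated list 8 of the 15 and 293 members did, where the share of all coding genes was 51.3%. Zfp963 and Zfp964 belong to the chromosome 8 cluster, the remaining larger cluster in which fewer members were marked than not (2 of 5).

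The 64 members with no peak in either list ranged from repeated to unique promoters. Of these, 20 had under 50% of words found once, 11 had 50 to 90% and 33 had at least 90%. No KRAB signature was found in 22 of the 33. KRAB was found in 41 of the 64, a share near the 60.2% of all members. Chromosomes 2 and 4, which hold 25 and 30 members, carry 26 of the 64. The distance from the 64 genes' starts to the nearest replicate 1 peak had a median of 83.9 kb, and at 2 of them it was within 5 kb.

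The mark sat just downstream of the start. The summit of the strongest peak lay at a median of 171 bp downstream of the nearest start in replicate 1 and 177 bp in replicate 2, against 247 and 252 bp at other marked genes. Its absolute distance had a median of 232.5 bp over the replicates, which was 357 bp when only the 5′ end was used. Where the domain held the 5′ end of a member, it reached 585.5 bp upstream and 1087 bp downstream at the median in replicate 1, and 502.5 and 915 bp in replicate 2. A single peak made up the promoter mark at 72.3% of marked members in replicate 1 and 70.5% in replicate 2, against 56.6% and 56.3% of other marked genes.

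Few peaks lay inside Zfp genes away from promoters, as at other coding genes. In replicate 1, 18 members (4.95%) had a peak in the gene body outside every promoter window, and in replicate 2 8 did (2.20%), against 6.21% and 2.88% of other coding genes. The KRAB signature was found in 2 of the 18, against 60.2% of all members. The 18 genes were also longer, with a median of 68.3 kb against 17.4 kb for all members. Zfp608 had 3 such peaks in replicate 1 and 2 in replicate 2, and Zfp407, a gene of 461.7 kb, had 3 and 1. The last exon, which holds the finger array in most of these genes, had a peak in 1 member in each replicate (0.275%), Zfp771 in replicate 1, against 0.797% of other coding genes in replicate 1 and 0.371% in replicate 2.

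Short motifs were counted in the 250 bases before to 50 after each gene's 5′ end, on both strands, as letters and not as bound sites. The ETS core CCGGAAG was found in 21.8% of marked members and 21.5% of the rest, against 10.8% of all coding genes and 18.8% of other marked genes. The GC box GGGCGG was found in 40.4% of marked members, against 43.0% of all coding genes and 61.6% of other marked genes. CCAAT, the NF-Y box, was in 44.6% of marked members, 39.0% of all coding genes and 39.3% of other marked genes. TATAAA was in 8.07% of marked members, which is below the 12.6% of all coding genes but not below the 7.12% of other marked genes. The NRF1 consensus was in 8.42% of marked members, above the 5.99% of all coding genes and below the 10.9% of other marked genes. AAGATGGCG, a YY1 site, was in 3.51%, 1.70% and 3.17% of these groups in the same order, and TGACGTCA, a CRE, in 4.56%, 2.43% and 3.51%. The letters GAGGAAGT, a PU.1 site that shares GGAAG with the ETS core, occurred in 2.11% of marked members, 13.9% of those not marked in both, 3.23% of all coding genes and 3.22% of other marked genes. All 11 unmarked members with them lie on chromosome 4, as in the upstream sequence of Zfp980 above. With windows of at least 90% words found once, 0 of 45 unmarked members had these letters.

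The genes of the KRAB silencing machinery were all marked. Of 29 listed co-repressor genes 29 had a promoter peak in both replicates, where 49.5% of all coding genes did. However, 22 of them lie in the highest CpG tertile, where 80.4% of other coding genes were marked. Their median number of annotated transcripts was 8, against 3 for all coding genes. Trim28, the scaffold that binds KRAB, had widths of 3176 and 2798 bp and folds of 31.4 and 11.7. Setdb1, which writes H3K9me3 with Trim28, had a narrower domain of 1481 and 567 bp and folds of 21.3 and 7.83. The heterochromatin protein gene Cbx3 had the widest at 5649 and 5348 bp. Windows of Cbx3 also hold a start of Hnrnpa2b1, and those of Trim28 a start of Slc27a5. The domains of Cbx3 and Trim28 therefore cannot be assigned to 1 gene. Uhrf1 and Dnmt1, which maintain DNA methylation, had folds of 47.5 and 19.1 and of 37.4 and 15.1.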

How the data were processed

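H3K4me3 ChIP-seq peak lists of 2 replicates, started from 10 ng of DNA per the labels, were used with the authors' pooled and replicated lists. Peaks were called for each replicate and for pooled alignments, per the deposited provenance texts. Aligner and peak caller: not given in the sources used here. The authors gave every deposited peak a fold, which is a ratio, and a −log10 q value. The fold was used only within a list. Depth is unknown.

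Genes came from GENCODE M21 on mm10, and RefSeq's GRCm38.p6 sequence gave CpG ratios, 50-base words, motifs and the printed sequences. No protein table was used: coding sequences were translated from the genome. The KRAB A signature was scanned as 9 fixed letters within 20 residues with up to 2 mismatches. C2H2 fingers were scanned as 2 cysteines and 2 histidines with a single spacing of the cysteines, so fingers with another spacing were missed. Code was tested on simulated data and run with Python 3.11.15, pandas 2.3.3 and numpy 2.4.6.

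The members, lists and alternatives were chosen with earlier results of these data known. Genes named were, by rule, the 10 widest and 5 narrowest marked members, the 10 of highest fold percentile, the top member and up to 2 unmarked members of each cluster of 5 or more, all 15 with a peak in 1 replicate, and 30 of known role; a few others are described with their cluster. Alternatives covered window, starts, list, overlap, q, joining, linking and each replicate left out.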

Additional observations from a re-analysis of the deposited data

How the results depend on the processing

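The number of marked Zfp genes was 243 to 300 under every alternative. No paired analysis was possible because there is 1 group and no comparison between groups. The difference in share marked from other coding genes (29.2 points) was 29.1 with 500 bp windows, 29.0 with 2500 bp windows, 28.5 with 1 start per gene, 29.6 with the pooled list, 29.7 with the replicated list, 29.2 to 29.4 without 1 replicate, 29.0 with −log10 q of at least 5, 29.1 with a 200 bp overlap, 33.3 without genes sharing a window, and 28.5, 27.2 and 9.22 within the CpG tertiles from low to high. The width difference (-422 bp) was -431.25 with 500 bp windows, -411 with 1 start, -401.5 with the pooled and -402.5 with the replicated list, -396.5 to -386 without 1 replicate, -434.5 with the q limit, -331.75 without genes sharing a window, -181.5 without joining and -470.5 with joining within 3 kb. The fold percentile difference (-5.21) was -3.16 with the pooled list, -5.49 to -2.82 without 1 replicate and 0.034 without genes sharing a window. The cluster difference (8.95 points) was 11.2 with 500 bp windows, 6.60 with the pooled list, 5.85 to 8.95 without 1 replicate and 18.5 with linking within 100 kb. The KRAB difference (-0.54 points) was 1.53 with 500 bp windows, -2.63 with the pooled list, -2.86 to -0.54 without 1 replicate, 0.84 with the q limit, 0.15 with a 200 bp overlap and -4.76 with no mismatch allowed in the signature. The summit distance (232.5 bp) was 357 with 1 start, 218.5 without genes sharing a window and 220.5 to 235 without 1 replicate.

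An alternative chosen after seeing the data left out windows with under 90% of words found once. It gave 30.3 points for the difference in share, -398.75 bp for width, 17.2 points for clusters and 9.90 points for KRAB. The cause of these changes was not tested. Of 313 widths of named genes recomputed, 292 stayed within the spread between replicates and 21 moved beyond it. The 292 include the widths without 1 replicate, which lie within that spread by construction. At the call level 15 members were lost with 1 start per gene and 3 with 500 bp windows (Zfp318, Zfp521 and Zfp704). The lists hold no counts, so what depth limits cannot be said.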

Other observations

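Other zinc finger families, chosen by symbol, gave shares on either side of the Zfp genes, all above the 49.5% of all coding genes marked in both replicates. Of 41 Zbtb genes, whose products join a BTB domain to fingers, 34 were marked in both replicates (82.9%) and 5 in replicate 1 only, where 4% of all coding genes were. Of 11 Zkscan genes 9 were marked (81.8%) and of 16 Zscan genes 10 (62.5%), with median widths of 1648 and 1389 bp and of 1451.5 and 1210.5 bp in replicates 1 and 2. The Klf genes, which encode factors with 3 fingers at one end, had 12 of 17 marked (70.6%) and wider domains, with medians of 3095.5 and 2460.5 bp. The finger scan found a median of only 1 finger in the Klf genes. The highest CpG tertile, where 80.4% of other coding genes were marked, holds 29 of the 41 Zbtb and 14 of the 17 Klf genes. All 3 Zfhx genes were marked, at a median fold percentile of 14.01. Genes with other Zfp symbols, such as those ending in a letter, had 19 of 26 marked (73.1%).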
